A study of Mus musculus with 12 samples.

Results

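The colon transcriptome of ApcMin mice kept on a methyl donor sufficient diet was described from 4 bead arrays, chosen by their diet label out of 12 arrays in the series. ApcMin mice carry a truncating mutation in Apc, the tumour suppressor that restrains Wnt signalling, and form intestinal polyps. The tissue was labelled as normal colon, taken after 11 weeks on the sufficient diet (MSD, also called CONTROL). The labels name 2 animals, colon 1 and colon 3, with 2 samples each, and give neither age nor sex. The other 8 arrays came from 4 ApcMin animals on the deficient diet and were used here for normalisation, for an alternative fit and to place the ranking. The 4 arrays are called CONTROL1, CONTROL1′, CONTROL3 and CONTROL3′, as in the headers of the signal table. Of 25697 probes, 12019 (46.8%) had a detection p under 0.05 on all 4 arrays, and these named 8592 of 16593 genes (51.8%). The detection p compares a probe with negative control beads, and 11573 probes were detected on none of the 4 arrays and 2105 on 1 to 3.

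The animal labels did not match the sex-linked genes of these arrays. Eif2s3y, a Y-linked translation initiation factor gene, had normalised log2 signals of 9.39 on CONTROL1, 4.48 on CONTROL1′, 4.47 on CONTROL3 and 10.22 on CONTROL3′. Xist, the RNA that coats the inactive X chromosome of females, had 4.94, 7.22, 7.42 and 4.84 in the same order. Thus both labelled animals held an array with a male and an array with a female pattern. Kdm5d, another Y-linked gene, followed Eif2s3y at 7.18, 4.57, 4.61 and 7.58. Uty, also Y-linked, was detected on all 4 arrays in the same order at 6.09, 5.70, 5.36 and 5.98, a narrower gap. Array by array values are therefore given below, and a mean ± SD over the 4 arrays (n = 4) mixes the spread within and between animals.

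The colon wall is a single layer of epithelium over connective tissue and smooth muscle. Absorptive colonocytes take up water, salt and short-chain fatty acids, and goblet cells secrete the mucus that separates epithelium from bacteria. Stem cells at the crypt base renew both under Wnt signalling, and immune cells, nerves and vessels lie beneath. RNA from whole colon pools these compartments, and in such bulk samples fewer cells of a type and less RNA per cell cannot be told apart. Signals below are deposited mean bead intensities, not normalised, unless log2 is stated. A bead signal also depends on its probe sequence, so the ranking describes probes and is not a scale of RNA amounts between genes.

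Mean signals of the detected probes ran from 64.2 to 20229, a ratio of 315, with a median of 249. The lowest 10% lay under 82.0, the highest 10% above 1693 and the highest 1% above 9029. Probes detected on none of the arrays had a median of 41.4. The weakest detected probe had a mean of 64.2, and the brightest probe that missed detection on 1 array had a mean of 123. Medians over all probes were 59.6 to 71.5 per array and 12804 to 13241 probes were detected per array. For each gene its brightest detected probe was ranked, and 76 genes exceeded a mean of 10000 and 1734 (20.2%) exceeded 1000. The curve was flat at its head and steepened further down: the signal was 8851 at rank 100, 2990 at rank 500 and 1731 at rank 1000. The top 100 probes held 13.2% to 15.2% of the summed signal of an array, and the top 1000 held 48.5% to 50.5%.

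**Figure D1:**
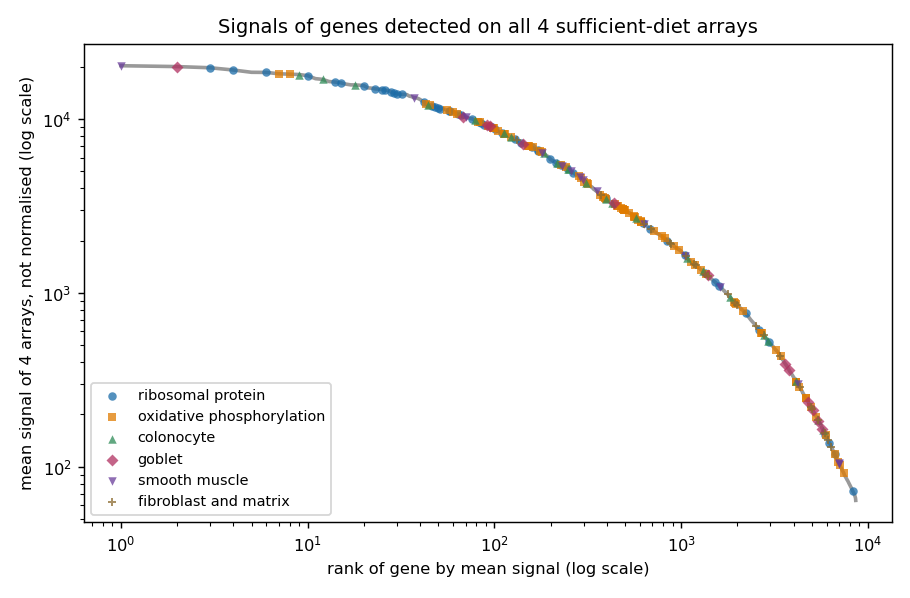
Mean signal of each of the 8592 genes detected on all 4 sufficient-diet arrays against its rank, both on log scales, with members of 6 gene lists marked. The curve starts at 20229 and ends at 64.2; ribosomal protein genes crowd the left end and fibroblast and matrix genes first appear further down.

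How far a rank rests on the probe could be seen within genes. Among 2051 genes with more than 1 detected probe, the brightest probe exceeded the dimmest by a median ratio of 2.20, and by over 10-fold in 200 genes (9.75%). Several genes that cells express abundantly were dim or missed detection. Eef1a1, the elongation factor that delivers aminoacyl-tRNA, was detected on 2 of 4 arrays with a mean of 59.4. Pgk1, a glycolytic enzyme, had a mean of 44.9 and Ftl1, the ferritin light chain, of 38.3, and both were detected on none. Actg1, cytoplasmic gamma actin, was detected on all 4 at a mean of only 88.7. Of the top 100 probes, 14 had no gene symbol. The genes ranked highest came from muscle, mucus, epithelium and the machinery every cell uses. Of the top 100 genes, 64 belonged to a list used here and 36 to none.

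The translation machinery supplied more of the top 100 genes than any other list. Ribosomal proteins form the ribosome together with ribosomal RNA, and 57 of 64 measured genes for them were detected on all 4 arrays. Their median signal was 9014, against 288 over all detected genes, and 29 stood in the top 100 and 46 in the top 1000. Rplp1, a protein of the ribosomal stalk, had signals of 19198 on CONTROL1, 19638 on CONTROL1′, 19181 on CONTROL3 and 20745 on CONTROL3′. Rpl41, the smallest ribosomal protein, had a mean of 19108 ± 1199 (SD) and Rpl9 of 18514 ± 624. These leading members lay close together on all 4 arrays. Rpl38 did not: it had 17138, 15445, 8765 and 17103 in the same order, low on CONTROL3. Rps21 had 12780, 10374, 6795 and 14612, again lowest on CONTROL3. Other members were weak or missed: Rps23, Rpl6, Rpl14, Rpl17 and Rplp2 were detected on none of the arrays. Among translation factors, 14 of 16 were detected on all 4, with a median of 5515. Eif3f, a subunit of initiation factor 3, led them at 11449 ± 1165. Npm1, a nucleolar ribosome assembly factor, followed at 8394 ± 1394 and Eef1g, an elongation factor subunit, at 8366 ± 853. Ribosomal protein genes share close homologues and pseudogenes, so their probes may catch more than 1 transcript.

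Messages for ribosomal proteins are known to begin with a run of pyrimidines (the 5′ terminal oligopyrimidine tract), through which their translation follows growth signals. Their start sites were therefore searched for at least 8 C or T in a row within 10 bases either side of the start, on the sense strand only. RefSeq promoters (GRCm38.p6) were found for 49 of the 57 detected ribosomal protein genes, and 16 (32.7%) held such a run. The same run stood in 670 of 6973 detected genes with a promoter (9.61%), in 8.71% of all 27025 genes with a promoter, and in 9 of 74 (12.2%) top 100 genes. The shares are descriptions, and no match says only that these letters are not in this window. The 5 sequences show what the run looks like at the start of 5 top 100 ribosomal protein genes. They reach from 40 bases before the start to 10 after it, 5′ to 3′ with the run in capitals; the run of Rpl35 ends where the window ends. They lie at chr14:24490638-24490687 (Rps24, plus strand), chr11:114668540-114668589 (Rpl38, plus strand), chr7:4792925-4792974 (Rpl28, plus strand), chr2:39005122-39005171 (Rpl35, minus strand) and chr3:90213639-90213688 (Rps27, minus strand).
Rps24: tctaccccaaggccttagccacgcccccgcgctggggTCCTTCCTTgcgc
Rpl38: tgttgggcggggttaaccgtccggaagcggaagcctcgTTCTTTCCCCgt
Rpl28: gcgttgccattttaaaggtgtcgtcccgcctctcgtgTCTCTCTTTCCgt
Rpl35: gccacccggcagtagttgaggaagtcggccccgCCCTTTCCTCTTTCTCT
Rps27: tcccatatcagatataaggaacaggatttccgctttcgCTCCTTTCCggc

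In the same promoters TATAAA, read on the sense strand 45 to 16 bases before the start, stood in 3 of 74 top 100 genes (4.05%) and in 2.01% of detected genes. CCAAT, read on both strands over the 250 bases before the start, stood in 41.9% of the top 100 and 40.8% of detected genes. For CCAAT the share of the top 100 was near that of the detected genes. The CArG box, CC and GG around a run of A or T, was searched the same way. It stood in 2.70% of the top 100, 1.56% of detected genes, 0 of 12 smooth muscle and 2 of 17 colonocyte genes. The metal response element core (TGCRCNC, R for A or G, N for any base) stood in 24.3% of the top 100 and 33.6% of detected genes.

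Genes for energy supply came next. Of 87 measured nuclear genes for oxidative phosphorylation, which makes ATP in mitochondria, 78 were detected on all 4 arrays with a median of 3012, and 12 stood in the top 100. Atp5g3, a gene for the membrane ring of ATP synthase, had signals of 18215, 18663, 17523 and 18333 on CONTROL1, CONTROL1′, CONTROL3 and CONTROL3′. Atp5b, its catalytic beta subunit, had 17858, 18117, 18059 and 18308, with the narrow coefficient of variation of 1.02%. Both genes were alike on all 4 arrays. Uqcr10, a small subunit of complex III, varied more at 12639, 11768, 9381 and 14776, lowest on CONTROL3 and highest on CONTROL3′. Cox5b and Cox4i1, subunits of cytochrome c oxidase, had means of 11979 ± 2051 and 11235 ± 1662. Outside that list, Ckmt1, the mitochondrial creatine kinase of epithelia, ranked 11 at 17044 ± 373, and Slc25a5, the ADP/ATP carrier, ranked 33 at 13852 ± 486. Glycolysis had 11 of 12 measured genes detected on all 4. Gapdh led with 11440 ± 829, followed by Ldha, which interconverts pyruvate and lactate, with 10062 ± 593 and Tpi1 with 8873 ± 1334.

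Genes of the cytoskeleton and of metal handling also stood high. All 12 cytoskeletal and housekeeping genes measured were detected on all 4 arrays and 4 stood in the top 100. Actb, cytoplasmic beta actin, had 12508, 11454, 14681 and 14258 on CONTROL1, CONTROL1′, CONTROL3 and CONTROL3′. Tuba1b, an alpha tubulin, had 8612, 9586, 12385 and 8813, highest on CONTROL3. Fth1, the ferritin heavy chain that stores iron, ranked 5 with 18686, 19733, 17715 and 18039. Mt1, the metal-binding metallothionein 1, had a mean of 11098 ± 1875, whereas the probe for Mt2 had 91.3 ± 14.1. Slc40a1, the iron exporter ferroportin, had 7658 ± 855 and Tfrc, the transferrin receptor, 5396 ± 791. The proteasome, which degrades tagged proteins, had 33 of 36 genes detected on all 4 and 14 in the top 1000, led by Psma2 at 7082 ± 959.

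**Figure D2:**
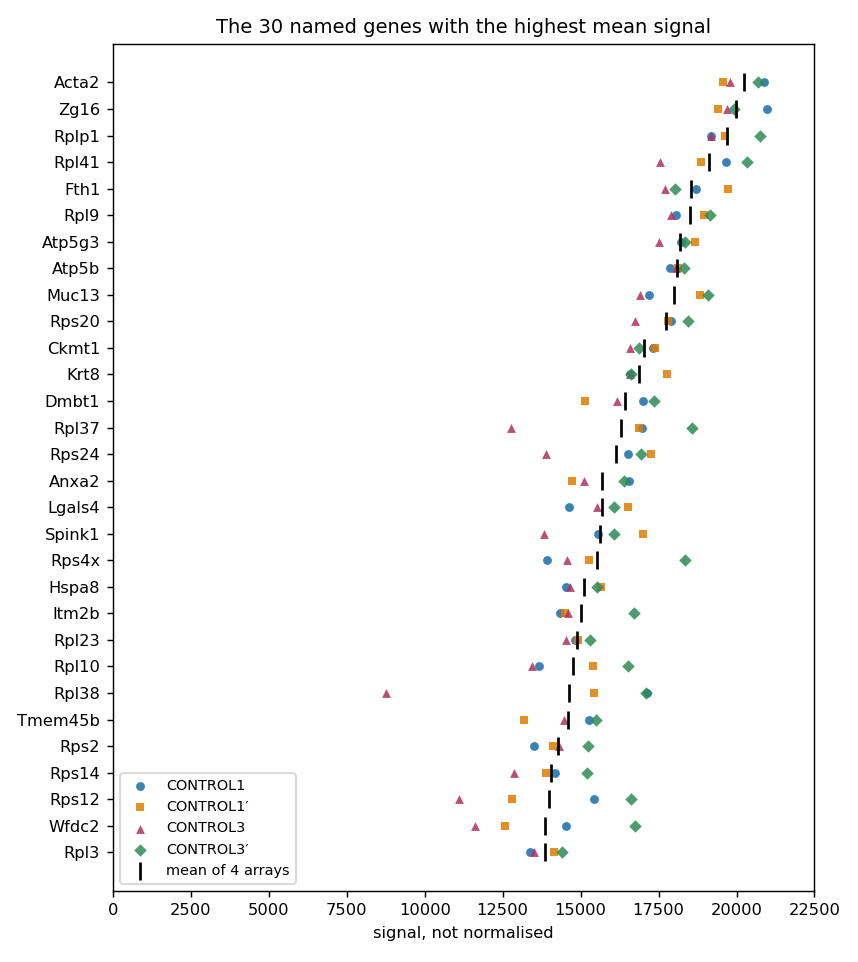
Signal on each of the 4 arrays (points) and their mean (bar) for the 30 genes with the highest mean signal, leaving out provisional symbols and pseudogenes; the axis is linear and not normalised. Acta2 leads at a mean of 20229, and Rpl38 has the widest spread, with CONTROL3 at 8765.

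Many genes of the colonocyte list, which also holds general epithelial genes such as Krt8, were bright. Detected members ran from 163 (Cdh17) to 18002 (Muc13). Of 26 measured, 23 were detected on all 4 arrays, with a median of 4304, and 5 stood in the top 100. Muc13, a mucin anchored in the apical membrane, had 17188, 18819, 16912 and 19087 on CONTROL1, CONTROL1′, CONTROL3 and CONTROL3′. Krt8, a keratin of simple epithelia, had 16587, 17779, 16586 and 16602. Lgals4, a galectin of apical transport, had a mean of 15688 ± 806 and Cdhr5, a cadherin of the brush border, 12007 ± 956. These 4 genes differed little between arrays. Car4, a carbonic anhydrase on the cell surface, had 6960, 10886, 11069 and 10483, lowest on CONTROL1. Guca2a, the precursor of the peptide guanylin, had 8256 ± 914, and Krt20, a keratin of mature surface cells, 5162 ± 297. Aqp8, a water channel of surface colonocytes, had normalised log2 signals of 11.92, 12.64, 12.88 and 11.74, higher on CONTROL1′ and CONTROL3. Slc26a3, the chloride bicarbonate exchanger, was detected on 3 arrays with a mean of 68.4, and Fabp2, the fatty acid binding protein of enterocytes, on none. Car1 was not analysed here.

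Goblet cell markers held rank 2. Of 14 measured, 13 were detected on all 4 arrays, 4 stood in the top 100, and their median was 1261. Zg16, a lectin-like protein of goblet granules that binds bacteria, had 20986, 19398, 19698 and 19905 on CONTROL1, CONTROL1′, CONTROL3 and CONTROL3′. Klk1, tissue kallikrein, had a mean of 10303 ± 1623. Spink4, a small secreted protein of goblet cells, had 13957, 5101, 4476 and 13169. Clca1, a secreted protease that processes mucus, had 11672, 5394, 6376 and 12828. For both genes CONTROL1 and CONTROL3′ were the higher arrays, and Spink4 spanned a normalised range of 3.09-fold, the widest of the top 100 genes. Tff3, the trefoil peptide of epithelial repair, had a mean of 7224 ± 2412. Spdef, a transcription factor of goblet maturation, had 237 ± 81.7, and Atoh1, the factor that sets secretory fate, was detected on none of the arrays. Muc2 was not analysed here.

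The first rank of all belonged to smooth muscle. Acta2, smooth muscle alpha actin, had 20867, 19554, 19805 and 20690 on CONTROL1, CONTROL1′, CONTROL3 and CONTROL3′. Of 17 measured smooth muscle genes, 15 were detected on all 4, with a median of 4479, and 3 stood in the top 100. Actg2, the enteric gamma actin, had 13238 ± 600 and Tpm1, tropomyosin 1, 10201 ± 1770. Myh11, the smooth muscle myosin heavy chain, had 5035 ± 723 and Des, desmin, 4628 ± 762. Other members were dimmer, with Tagln at 1082 ± 213, Lmod1 at 298 ± 76.0, Cnn1 at 106 ± 14.7 and Kcnmb1 lowest at 103 ± 27.3. Pcp4 and Synpo2 were detected on none of the arrays. None of the 15 varied over 2-fold between arrays after normalisation. With 489 of 8592 detected genes (5.69%) over 2-fold, a count of 0 among 15 is near the share of all genes. Fibroblast and matrix genes were nearly all detected, 24 of 25, but with a lower median of 927 and none in the top 100. Dcn, the collagen-binding proteoglycan decorin, led with 7606 ± 1180, followed by Bgn, biglycan, with 3632 ± 619 and Mgp, matrix Gla protein, with 2491 ± 536. Col1a1, a chain of type I collagen, had 215 ± 88.3.

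Of the 36 top 100 genes outside any list, 3 were provisional symbols or pseudogenes and several are epithelial or secreted. Dmbt1, a secreted scavenger receptor of mucosal defence, had 16993, 15131, 16155 and 17359 on CONTROL1, CONTROL1′, CONTROL3 and CONTROL3′. Anxa2, a calcium-dependent membrane binding protein, had 15697 ± 917 and Lgals3, galectin 3, 13786 ± 453. Spink1, a secreted trypsin inhibitor placed in the male accessory gland list, ranked 19 at 15572, 17007, 13832 and 16085, with no array apart. Wfdc2, a secreted epithelial protein, had 14532, 12562, 11615 and 16740. Sycn, syncollin, known from zymogen granules, had 14964, 11468, 10807 and 16526. Both were higher on CONTROL1 and CONTROL3′. Ion transport was present with Atp1b1, the beta subunit of the sodium pump, at 13107 ± 1038, and Atp12a, the colonic proton potassium pump, at 10951 ± 1748. Sgk1, a kinase induced by aldosterone that raises sodium uptake, had 7852, 11255, 13263 and 8380, high on CONTROL1′ and CONTROL3. Hspa8, the constitutive cytosolic chaperone, had 15093 ± 584, and Hmgcs1, an enzyme of cholesterol synthesis, 10571 ± 856. Klf5, a transcription factor of proliferating crypt cells, had 9675 ± 1671.

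Rarer cell types contributed single bright genes over much lower list medians. Pyy, the peptide YY of colonic L cells, had a mean of 7410 ± 1694, while the 10 enteroendocrine genes detected on all 4 of 13 had a median of 395. Insl5, another L cell hormone, had 1672 ± 281 and Chga, chromogranin A, 165 ± 21.1. Among crypt and Wnt target genes, 9 of 16 were detected on all 4 with a median of 175. That share is near the 51.8% of all measured genes. Slc12a2, the sodium potassium chloride cotransporter of crypts, had 6783 ± 909. Axin2, a feedback target of Wnt signalling, had 390 ± 89.2, Lgr5, the stem cell receptor, 108 ± 17.7, and Myc 76.2 ± 6.28. Apcdd1 and Notum of this list were detected on 2 of 4 arrays. On CONTROL1, CONTROL1′, CONTROL3 and CONTROL3′, Apcdd1 had log2 signals of 6.94, 4.68, 4.69 and 6.66, and Notum 6.83, 4.77, 4.65 and 6.85. Lgr5 did not share that order and was highest on CONTROL3. The probe for Apc itself had a mean of 140, with log2 signals between 6.61 (CONTROL3′) and 7.08 (CONTROL1′). Cell cycle genes had 16 of 18 detected on all 4, at a median of 365, led by Mcm4, a subunit of the replicative helicase, at 1203 ± 193. Tuft cell markers were near the limit, with 4 of 10 detected on all 4 and a median of 110.

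Immune markers lay on both sides of the median of all detected genes, 288. Their detected counts stand beside a share of 51.8% over all measured genes. Macrophage and dendritic cell genes had 13 of 15 detected on all 4 at a median of 484. Lyz1 (8141 ± 875) and Lyz2 (1481 ± 213) led them. These lysozyme genes are close copies and Lyz1 also marks Paneth cells, so their signals are uncertain. The complement genes C1qb and C1qc had 777 ± 113 and 625 ± 47.1. MHC class II genes, which present antigen, were all 7 detected, led by Cd74, the invariant chain, at 2543 ± 465. MHC class I and antigen processing genes had 9 of 10 at a median of 222, led by B2m, the class I light chain, at 7048 ± 1626. T and NK cell genes had 5 of 14 detected on all 4 at a median of 111, and Cd4 and Cd8a were detected on none. B and plasma cell genes had 7 of 11, led by Mzb1 at 617 ± 129. Cd177 stood apart within the neutrophil list at 2880 ± 953, while S100a8 had 289 ± 73.0 and Mpo and Elane, granule enzymes that define neutrophils, were detected on none. Immediate early genes, induced within minutes of a stimulus, had 14 of 17 detected on all 4, with Fos at 6447 ± 2002, Egr1 at 4827 ± 1018 and Dusp1 at 4247 ± 623.

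No marker of vessels, nerves or fat reached the top 1000. All measured genes had a share of 51.8% detected on all 4 arrays, and the neuron and fat lists lay near it. Endothelial genes had 10 of 13 detected on all 4 at a median of 412, led by Esam, a junction protein, at 780 ± 70.0. Enteric neuron and glia genes had 9 of 16, led by Vip, a neuropeptide that relaxes gut muscle, at 1012 ± 222, while the glial genes Gfap and S100b were detected on none. Ano1, the chloride channel of interstitial cells of Cajal, had 631 ± 95.8. Adipocyte genes had 5 of 10, among them Adipoq, adiponectin, at 372 ± 157, and Plin1 and Fabp4 were detected on none. Mesothelial genes had 1 of 5. Hba-a1, a haemoglobin alpha gene, had 3759 ± 2101, the wide SD reflecting log2 signals of 12.20, 11.38, 10.83 and 12.37 on CONTROL1, CONTROL1′, CONTROL3 and CONTROL3′. Haemoglobin genes have near-identical copies, which makes these values uncertain.

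**Figure D3:**
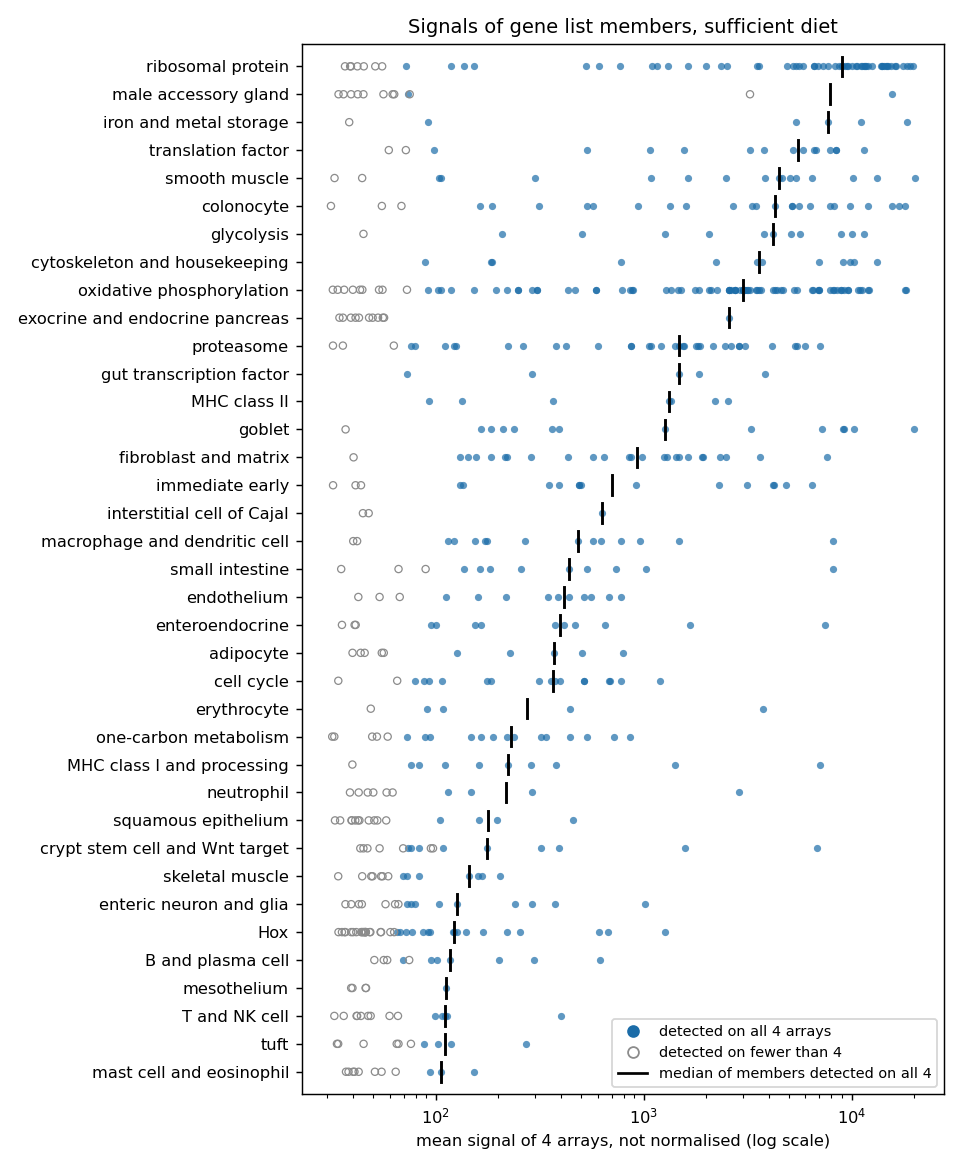
Mean signal of each measured member of 37 gene lists on a log scale, filled where detected on all 4 arrays and open otherwise, with the median of the filled points as a bar. Ribosomal protein genes centre on 9014, smooth muscle on 4479 and colonocyte on 4304, while T cell, neuronal and tuft cell genes centre far lower.

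The label of colon was set against position and tissue markers. For comparison, 51.8% of all measured genes were detected on all 4 arrays. All 5 measured gut transcription factors were detected on all 4 arrays, with Hnf4a, a regulator of epithelial differentiation, at 3819 ± 469 and Cdx1, an intestinal homeobox factor, at 1836 ± 132. Of 38 Hox genes, which mark position along the body, 17 were detected on all 4, with Hoxd10 at 1261 ± 380, Hoxd13 at 220 ± 33.3 and Hoxa13 at 127 ± 10.1. Small intestinal genes had 9 of 12 detected on all 4 at a median of 438. Apoa1, an apolipoprotein of absorptive cells, led after Lyz1 with a mean of 1025 ± 535, and Fabp1, the liver type fatty acid binding protein, was detected on none. Of 11 pancreatic genes, Cela1 alone was detected on all 4, at 2564 ± 672, and Cpa1 and Ins2 were detected on none. Squamous epithelium had 4 of 15, and Krt5, Krt4 and Krt13 were detected on none. Skeletal muscle had 7 of 14, near the share of all genes, at a median of 144. Colonic, goblet and muscle lists held members in the top 100, and most pancreatic and squamous markers missed detection on all 4 arrays. The small intestinal list median of 438 exceeded the 288 of all detected genes, but Anpep, Apoa4, Rbp2 and Fabp6 lay below it.

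Enzymes of one-carbon metabolism, which carry the methyl groups that the diet supplies, lay in the middle and lower part of the ranking. Of 19 measured genes 14 were detected on all 4 arrays, with a median of 230 and none in the top 1000. Mat2b, a regulatory subunit of S-adenosylmethionine synthetase, had 856 ± 157 and Tyms, thymidylate synthase, 716 ± 101. Slc46a1, the proton-coupled folate transporter, had 535 ± 125. Dnmt1, the maintenance DNA methyltransferase, had 337 ± 57.6, Ahcy, which clears S-adenosylhomocysteine, 239 ± 6.63, and Dnmt3b, a de novo methyltransferase, 188 ± 28.6. None of the 14 varied over 2-fold between arrays after normalisation. Of all 8592 detected genes 489 (5.69%) did, a share at which few or none of 14 genes would. Dnmt3a, Bhmt, Folr1 and Mtrr were detected on none.

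The 4 arrays resembled each other in a way that did not follow the labelled animals. Across the 12019 detected probes, normalised log2 signals correlated at 0.975 within each labelled pair (CONTROL1 with CONTROL1′, CONTROL3 with CONTROL3′). CONTROL1′ and CONTROL3, labelled as different animals, correlated at 0.992, and CONTROL1 and CONTROL3′ at 0.986. Median absolute log2 differences were 0.241 within each labelled pair, 0.145 between CONTROL1′ and CONTROL3, and 0.185 between CONTROL1 and CONTROL3′. These correlations run across probes, which are not independent replicates. The limma fit of labelled colon 3 minus labelled colon 1, over 13410 probes detected on at least 2 of the arrays, called none at an adjusted p under 0.05 (0%). At an unadjusted p under 0.05 it counted 51 probes (0.380%), and the smallest adjusted p was 1. With duplicate samples of an animal as replicates, such p-values measure the spread between samples, and that spread holds a difference in sex.

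Array to array spread was small for the brightest transcripts. The median coefficient of variation was 9.12% over the top 100 probes, 15.9% over the next 900 and 15.2% over all detected probes. After normalisation 666 detected probes (5.54%) ranged over 2-fold among the arrays. That count was 389 under quantile normalisation without background correction. It was 380 without CONTROL1, but leaving out an array can narrow the range of a probe and cannot widen it. Of the 666, the higher pair of arrays was CONTROL1′ and CONTROL3 for 277 (41.6%, against 23.7% of all detected probes). It was CONTROL1′ and CONTROL3′ for 183 (27.5%, against 15.7%), CONTROL1 and CONTROL3′ for 170 (25.5%, against 26.4%) and CONTROL1 and CONTROL3 for 15 (2.25%, against 21.6%). The labelled pair CONTROL3 and CONTROL3′ was the higher for 21 (3.15%, against 5.31%), and the labelled pair CONTROL1 and CONTROL1′, at 7.16% of all detected probes, was the higher for none of the 666. Among the top 1000 genes 26 ranged over 2-fold.

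The widest ranging of the genes detected on all 4 arrays differed in which arrays were high. Rnase1, a secreted ribonuclease, had log2 signals of 8.45, 5.24, 5.47 and 8.94 on CONTROL1, CONTROL1′, CONTROL3 and CONTROL3′. Azgp1, a secreted zinc-binding glycoprotein, had 9.17, 6.53, 6.62 and 9.39, and Pnliprp1, a pancreatic lipase relative, 8.89, 6.79, 6.63 and 9.07. These 3 genes were high on CONTROL1 and CONTROL3′, as was Fgl1. Other genes were high on CONTROL1′ and CONTROL3. Aurka, a spindle kinase, had 6.68, 9.03, 8.96 and 7.01, and Cdk1, the kinase that drives entry into mitosis, 7.01, 9.33, 9.19 and 7.70. Cdc20, an activator of the anaphase-promoting complex, had 6.69, 8.58, 8.77 and 6.48 on its wider ranging probe and the same order of arrays on its brighter probe. Cyp2c55, a cytochrome P450, had 7.80, 10.11, 10.21 and 7.75, and Slc51a, a subunit of the bile acid exporter, 5.35, 7.99, 7.70 and 5.68. The chemokine Ccl7 and the defensins Defa20 and Defa22 were highest on CONTROL1′. Defensin genes are near-identical copies and their signals are uncertain.

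Genes detected on 1 to 3 arrays ranged further. Tgm4, a prostate transglutaminase, lay on the log2 scale at 12.51 on CONTROL1, 4.73 on CONTROL1′, 4.57 on CONTROL3 and 12.57 on CONTROL3′. Pate14 had 10.51, 4.79, 4.72 and 11.04, and the defensin Defb50 8.21, 4.70, 4.62 and 8.74. Of the 12 male accessory gland genes measured, 2 were detected on all 4 arrays (Spink1 and Svs6), 4 on some and 6 on none. Pbsn, probasin, had 5.50, 4.53, 4.54 and 6.76 and Msmb 5.52, 4.57, 4.51 and 6.07, both higher on the arrays with the Y-linked signal. Svs1, Svs2, Svs3a, Svs4, Svs5 and Pate4 were detected on none. Chil3, a chitinase-like protein of macrophages, followed Xist instead, at 4.67, 6.92, 6.34 and 5.07.

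**Figure D4:**
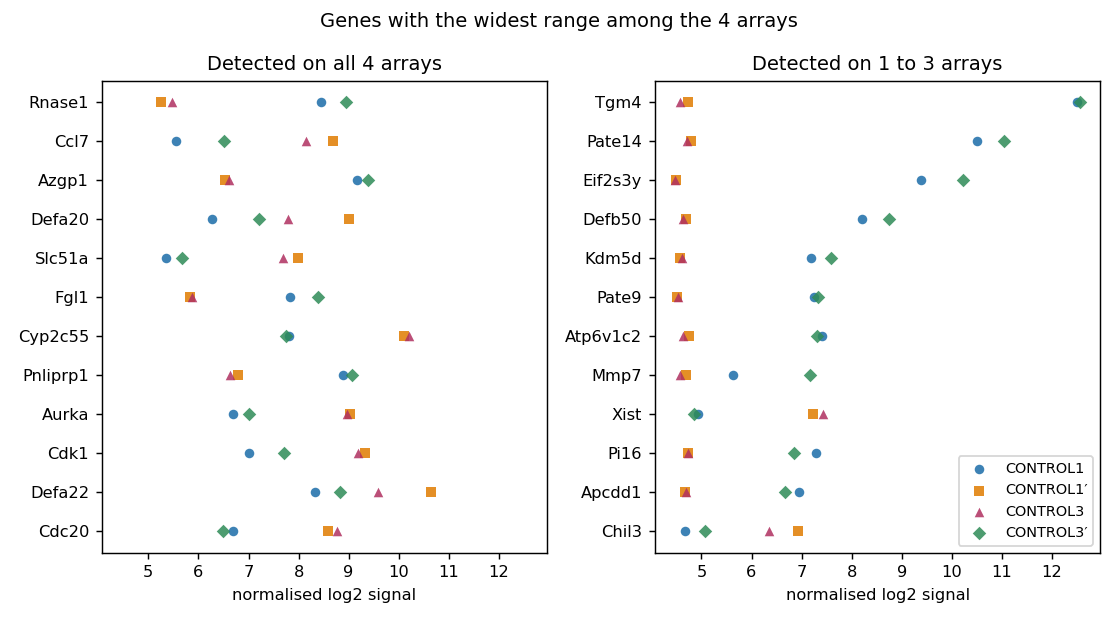
Normalised log2 signals on the 4 arrays for the 12 genes with the widest range among those detected on all 4 (left) and among those detected on 1 to 3 (right). In most rows CONTROL1 lies beside CONTROL3′ and CONTROL1′ beside CONTROL3, as for Tgm4 at 12.51 and 12.57 against 4.73 and 4.57.

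Some list medians differed between arrays, while single members did not all follow them. Each gene was set against its own mean over the 4 arrays, and the median of these log2 deviations was taken per list. The goblet median lay at 0.30 on CONTROL1, -0.18 on CONTROL1′, -0.33 on CONTROL3 and 0.24 on CONTROL3′. Agr2, a chaperone of mucin folding, did not follow it at log2 signals of 6.14, 7.23, 6.25 and 7.95, and Zg16 was nearly flat. Nor did Ang4, lowest on CONTROL1, or Creb3l1, lowest on CONTROL3′. Bcas1, Ccl6, Clca1, Klk1, Retnlb, Spdef, Spink4, Sytl2 and Tff3 followed the goblet median, each higher on CONTROL1 and CONTROL3′ than on the other arrays. Lists of other cell types had medians of the same pattern: erythrocyte genes lay at 0.50, -0.30, -0.80 and 0.60 (4 genes), squamous genes at 0.43, -0.38, -0.49 and 0.42 (4 genes), and mast cell and eosinophil genes at 0.36, -0.27, -0.33 and 0.28 (3 genes). Among the squamous genes Krt14 followed the median, but Lor ran the other way at log2 signals of 7.14, 7.73, 7.50 and 7.36. Hba-a1, Alas2 and Slc4a1 followed the erythrocyte median. Hbb-bt did not fully, at 8.43, 8.56, 7.43 and 9.52, with CONTROL1 below CONTROL1′. Cell cycle genes had medians of -0.43, 0.26, 0.20 and -0.29, and 8 of the 16 ranged over 2-fold, against 5.69% of all detected genes. Mcm2, a helicase subunit, ran against that median at log2 signals of 7.67, 6.95, 6.97 and 7.52. Mcm3, Mcm4 and Mcm5 were also highest on CONTROL1, and Mcm6 and Pcna were highest on CONTROL3′. Stmn1 was lower on CONTROL3 than on CONTROL3′. Birc5, Cdc20, Cdk1, Hmgb2, Mcm7, Rrm1, Rrm2, Tk1 and Top2a followed the median, each higher on CONTROL1′ and CONTROL3 than on the other arrays. Small intestinal genes had medians of -0.43, 0.57, 0.44 and -0.63, with 6 of 9 over 2-fold. Apoa1 had log2 signals of 8.92, 10.73, 10.59 and 9.06, and Reg3b, an antibacterial lectin, 8.39, 10.20, 10.11 and 8.73. Colonocyte medians stayed between -0.05 and 0.06, and smooth muscle medians between -0.09 and 0.07. Ribosomal protein and oxidative phosphorylation medians were lowest on CONTROL3, at -0.19 and -0.25. The arrays with the higher goblet, erythrocyte and squamous medians were those with Y-linked and prostate signals, and the part of these in the differences was not tested.

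**Figure D5:**
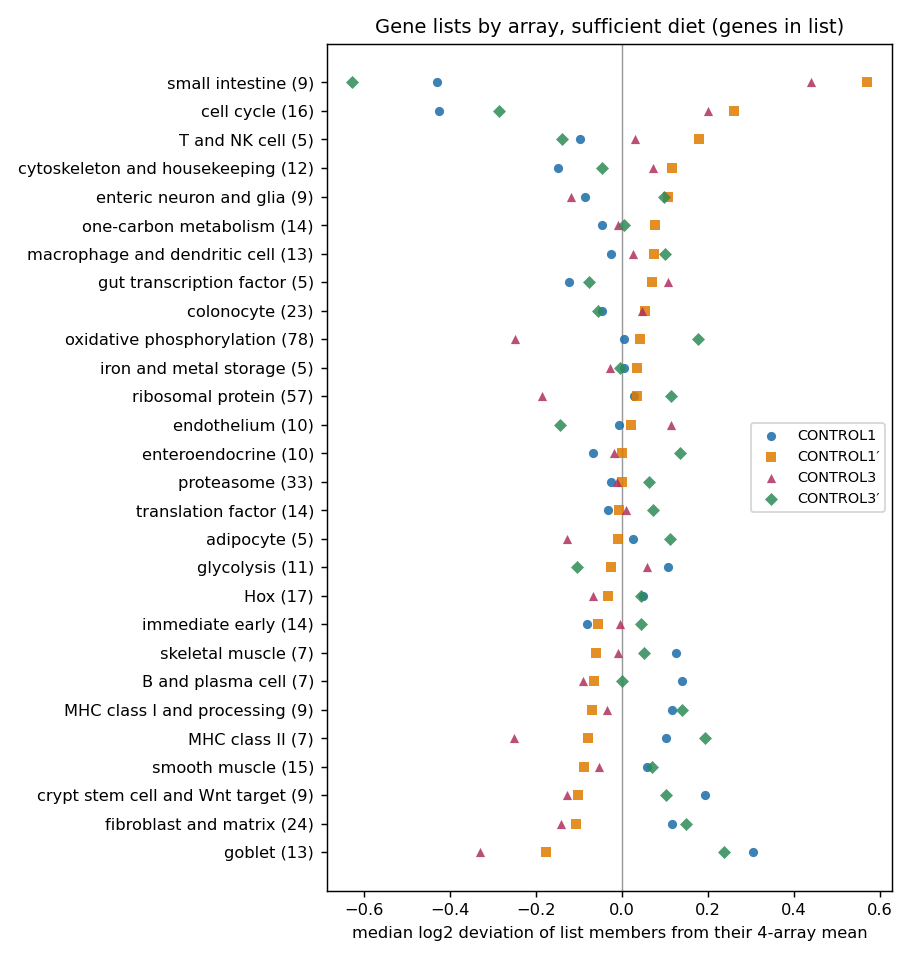
Median log2 deviation of list members from their own mean over the 4 arrays, for lists with at least 5 genes detected on all 4. Small intestinal and cell cycle medians lie right of 0 on CONTROL1′ and CONTROL3, the goblet median on CONTROL1 and CONTROL3′.

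The head of the ranking was largely shared with the 8 arrays of the deficient diet. Those arrays were ranked by their own mean signals over the probes detected on all 8 of them. A gene again took its brightest such probe, which could differ from the probe ranked above. Their ranking held 88 of the top 100 genes, 458 of the top 500 (91.6%) and 926 of the top 1000 (92.6%). Of the 12 genes that left the top 100, Spink4 moved furthest, from rank 91 to 265, followed by Car4 from 79 to 188, Sgk1 from 71 to 165 and Hmgcs1 from 65 to 141. Ranks on the 2 diets were not tested against each other here.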

How the data were processed

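Expression was measured on Illumina bead arrays from 12 colon samples. Per the labels' protocols, a Trizol extract was treated with DNase I on RNeasy kit columns, and MessageAmp gave biotin-labelled cRNA for hybridisation. The deposited signal table gives a mean bead intensity per probe and array on a linear scale, not normalised as far as the values show. Its detection p-values are named so per the file headers. The deposited series matrix holds the authors' log2 values, centred so that each probe has a median of 0 over the 12 arrays; each column correlated at 0.957 to 0.979 with a scanner column of its own labelled animal, and in the same direction, with column medians of -0.15 to 0.15, and its normalisation before centring is not given in the sources used here. It served as an alternative.

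The 4 arrays labelled methyl sufficient were ranked by mean intensity over probes with detection p under 0.05 on all 4. A gene took its brightest such probe. Of 25697 probes, 23978 had 1 symbol in the platform annotation and 1719 had none. For log2 values, signals of all 12 arrays were background-corrected and quantile-normalised with neqc in limma 3.58.1 (R 4.3.3, offset 16). Labelled colon 3 was compared with labelled colon 1 by limma's lmFit and eBayes over probes detected on at least 2 of the 4 arrays (two-sided, Benjamini-Hochberg, threshold 0.05); the fit was tested on simulated data. Column marks (plain or prime) did not pair the samples, since deviations of equal marks from the labelled animal means correlated at -0.387. The number of arrays limits the precision. Medians of probes per list are descriptions.

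Genes named are the 30 brightest after provisional symbols and pseudogenes were left out, the 3 brightest per list, the 12 widest ranging among genes detected on all 4 and among those detected on 1 to 3, and a few fixed genes such as Apc and Dnmt1; other genes were chosen after their values were seen. The members and lists were chosen with earlier results of these data known. Promoters are from RefSeq (GRCm38.p6). Alternatives covered detection limit, ranking, probe per gene, normalisation, filter, samples, block and left-out arrays.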

Additional observations from a re-analysis of the deposited data

Results flagged for a closer look

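Among 72 genes and 28 lists examined over the 4 arrays, 3 genes had an array whose gap to the others was large relative to the gene's whole range, a test that chance passes in about 1 in 20 groups. Rpl9, a ribosomal protein gene, had a log2 signal of 14.18 on CONTROL1, below the rest, but its whole range was 1.01-fold. Ckmt1, the mitochondrial creatine kinase, had 13.97 on CONTROL3′, below the rest, with a whole range of 1.10-fold. In the deposited signals, before normalisation, both genes were instead lowest on CONTROL3, Rpl9 at 17914 and Ckmt1 at 16598. Rpl38, another ribosomal protein gene, had 13.23 on CONTROL3, against 13.96 to 14.07 on the other arrays.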

How the results depend on the processing

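The number of arrays, 4 from 2 labelled animals, limits every value. The count of probes ranging over 2-fold, 666, became 389 under quantile normalisation without background correction. It ran from 380 to 547 when an array was left out, the lowest without CONTROL1. A range over fewer arrays cannot exceed the range over all 4 for the same probe, so these counts are not a check of the 666. Why the count was lowest without CONTROL1 was not tested. The comparison of the labelled animals called 0 probes under every alternative run, with 32 to 334 at an unadjusted p under 0.05 and smallest adjusted p-values of 0.787 to 1. With the column mark as replicate block it called 0 (32 unadjusted). With the marks crossed, an alternative added after seeing the data, it also called 0 (87 unadjusted). When the rank was taken by other means or an array was left out, the top 100 kept at least 96 of its genes. Detection under 0.01 left 9931 probes on all 4 arrays. With a gene's mean over its probes, 29 ribosomal genes in the top 100 became 28 and the translation factors went from 1 to 3. Ranked by median signals, an alternative added after seeing the data, the deficient arrays shared 87 of the top 100 genes. Dim probes near detection, with signals of 64.2 to 82.0, stand less than 2-fold above the 41.4 median of probes detected on none.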
